A study of Mus musculus with 7 samples.

Results

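A set of 9 genes that handle extracellular ATP and adenosine was followed in regulatory T cells (Tregs), CD4 T cells defined by the transcription factor Foxp3. They were Entpd1, Nt5e, Adora2a, Adora2b, P2rx4, P2rx7, Ada, Adk and Slc29a1, chosen by name, and all 9 were found among the 24084 gene symbols of the count table. The choice was made with earlier results of these data known, which limits comparisons of the set with all genes. Messenger RNA was sequenced from 4 libraries of Tregs sorted from telogen skin (the resting phase of the hair cycle) and 3 libraries of Tregs sorted from skin-draining lymph nodes (SDLN). All mice were aged 6 weeks and carried the Foxp3-DTR allele, which the series text gives as Foxp3-DTR/GFP, linking the diphtheria toxin receptor and a green fluorescent protein to Foxp3. The labels name no toxin or other treatment. Neither the sort gates nor how many animals went into a library are stated, so p-values measure the spread between libraries, which may in part be technical.

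Cells release ATP when stressed or damaged, and ATP outside the cell acts as an alarm signal on P2X and P2Y receptors. A pair of membrane enzymes removes it in sequence: CD39, encoded by Entpd1, cuts ATP and ADP to AMP, and CD73, encoded by Nt5e, cuts AMP to adenosine. Adenosine acts on receptors of the A2 class, which raise cAMP through the stimulatory G protein and restrain T cells, and it is removed by uptake, deamination or phosphorylation. Mouse Tregs are known to carry both CD39 and CD73, and this pair is regarded as one of their means of suppression.

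Total gene counts ranged from 11009609 to 13921238 in skin and from 13123241 to 14785751 in SDLN, and 3 counts stood for 0.214 to 0.276 CPM (read counts relative to the TMM-scaled library size) in skin and 0.204 to 0.232 CPM in SDLN. Skin libraries differed more from each other than SDLN libraries did, with correlations of log2 CPM across genes of 0.624 to 0.699 in skin and 0.964 to 0.981 in SDLN, and a median coefficient of variation per gene of 0.750 in skin and 0.187 in SDLN. Genes with at least 1 count numbered 9690 to 12639 in skin and 13408 to 13845 in SDLN. The T cell and Treg markers summed to 7899 to 12539 CPM in skin and 8298 to 9979 CPM in SDLN, and Foxp3, Il2ra, Cd3e and Cd4 were read in every library. These sums mix markers of unlike direction and do not show equal T cell content. Cd3e (means 882 CPM in skin, 1848 CPM in SDLN) and Cd4 (466 and 738 CPM) were lower in every skin library. Foxp3 was higher in every skin library (169 and 89.0 CPM), and Il2ra overlapped. None of these passed edgeR's test. Markers of macrophages and dendritic cells summed to 828 to 12075 CPM in skin, highest in skin 4, and to 346 to 561 CPM in SDLN, over 15 markers, with Cd74 the most abundant, Cd207 at 0 in all libraries and Itgax and Cd14 at 0 in all SDLN libraries. Skin 3 stood apart for 8 keratinocyte markers, led by Krt17, at 1326 CPM against at most 20.7 CPM in any other library, and for 7 fibroblast markers, led by Col3a1, at 2010 CPM against at most 8.93 CPM. Endothelial markers, led by Pecam1, summed to 16.2 to 70.4 CPM in skin and 388 to 548 CPM in SDLN. Of these 3 markers the other 2 were at 0 in all SDLN libraries, so the SDLN sum is Pecam1 alone and does not show endothelial content. Those of CD8 T and NK cells, led by Nkg7, summed to 113 to 334 CPM in skin and 120 to 195 CPM in SDLN. Of these 6 markers, 2 were at 0 in all skin libraries. Those of mast cells, led by Kit, summed to 0 to 26.2 CPM in skin and 6.64 to 12.6 CPM in SDLN. Of these 6 markers, 5 were at 0 in all skin libraries and 3 in all SDLN libraries. Skin 1 carries a tissue tag that names the lymph node although its title and source name skin. SDLN 3 had 3877 counts of the Y-linked gene Ddx3y, against at most 2 in any other library. The labels do not give the sex of the animals, and its part in the results was not tested.

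Of the 9 genes, 8 passed the filter on low counts and were tested in a fit of all 11376 genes that passed it (edgeR's quasi-likelihood test, Benjamini-Hochberg adjusted p under 0.05). Nt5e fell in skin Tregs, no gene of the 9 rose, and the other 7 tested did not pass. Over all genes tested, 3.96% fell, 3.28% rose and 7.24% passed in either direction. The number of the 9 genes that rose was 0 by each of DESeq2 and limma-voom and, in edgeR, before adjustment at p under 0.05. The number that fell was 2 by each of them, Nt5e and P2rx7. With DESeq2 12.6% of all genes passed in either direction, and with limma-voom 8.79%. The share of all genes before adjustment was not counted. The median log2 fold change, skin over SDLN, was -1.18 over the 8 tested genes and 0.05 over all tested genes. The tissues' libraries did not overlap for 4 of the 8, Nt5e, P2rx7, Ada and Adk, all with skin below, where 16.5% of all genes had skin below, 10.1% had skin above and 26.6% did not overlap in either direction. P2rx7 passed the filter through its SDLN counts alone, so it could appear here only as lower in skin. In these bulk libraries fewer cells that hold a transcript and less of it per cell cannot be told apart.

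**Figure D1:**
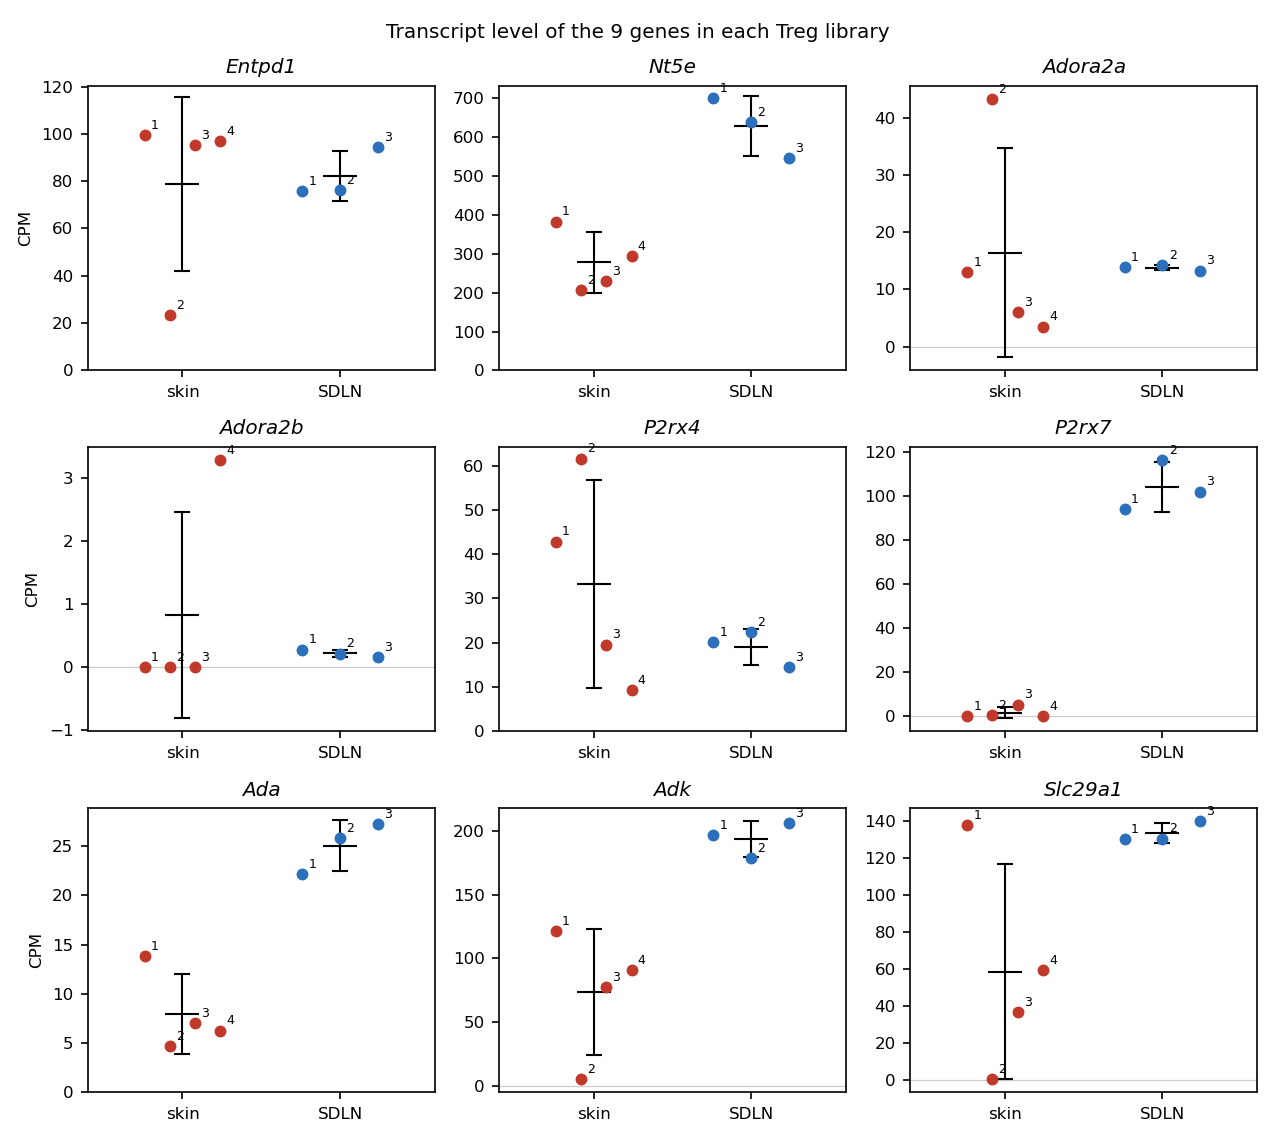
CPM of each of the 9 genes (vertical axis, from its own scale) in 4 skin libraries (red, left) and 3 SDLN libraries (blue, right), with points numbered by library and black bars for the mean ± SD. P2rx7 stands at 0 to 5.11 CPM in skin and at 94.2 to 116 CPM in SDLN, Nt5e is lower in every skin library, and skin 2 is the low point for Entpd1, Adk and Slc29a1.

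Of the ectonucleotidases, Nt5e fell and Entpd1 did not pass, and the difference between the genes was not tested. Nt5e (chromosome 9, 88327197 to 88372092, plus strand; here and below mm10, protein-coding in GENCODE M21) fell to 382, 207, 230.1 and 294 CPM in skin 1 to 4, against 700.5, 637.5 and 546 CPM in SDLN 1 to 3. Every skin library lay below every SDLN library, and skin 1 was the closest to them. The means were 278 ± 78.6 CPM in skin (SD, n = 4) and 628 ± 77.5 CPM in SDLN (SD, n = 3), 2.26-fold lower in skin (log2 fold change -1.17, SE 0.27, edgeR adjusted p = 0.0394). These values rest on 13443 counts in skin and 26635 in SDLN. The direction held in each of 19 alternative analyses, with log2 fold changes of -1.36 to -1.07, but the call was lost in 11 of them, among them every one that left out an SDLN library (adjusted p = 0.165 to 0.195) or skin 2, 3 or 4 (0.0608 to 0.0752).

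Entpd1 (chromosome 19, 40612366 to 40741602, plus strand) had 99.4, 23.5, 95.2 and 96.9 CPM in skin 1 to 4, against 75.7, 76.4 and 94.3 CPM in SDLN 1 to 3. Skin 1, 3 and 4 lay just above all SDLN libraries and skin 2 lay far below them, so the tissues overlapped. The log2 fold change was -0.06 (SE 0.52, edgeR adjusted p = 0.979), and without skin 2 it was 0.22 (adjusted p = 0.724). Per kb of exon, the ratio of Nt5e to Entpd1 within a library was 2.49, 5.71, 1.57 and 1.97 in skin 1 to 4, against 6.00, 5.42 and 3.76 in SDLN 1 to 3. It was lower than in any SDLN library in skin 1, 3 and 4, while skin 2, where Entpd1 itself was low, lay within the SDLN range.

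Other genes of the ectonucleotidase families were read from a list of 11, all in the table. The list goes by family, not by where an enzyme acts, and not all of its products are enzymes of the cell surface. Of these, 7 were tested and 0 rose or fell by edgeR, DESeq2, limma-voom or edgeR before adjustment (p under 0.05). Over all genes 7.24% passed with edgeR, 12.6% with DESeq2 and 8.79% with limma-voom. At such shares 0 calls among so few genes is no result about the list. Entpd6, a nucleoside diphosphatase and the member with the highest level per exon length, had 84.3, 80.1, 34.1 and 23.0 CPM in skin 1 to 4, against 79.8, 79.3 and 73.4 CPM in SDLN 1 to 3 (log2 fold change -0.48, edgeR adjusted p = 0.741). The low skin libraries, 3 and 4, were not those in which Entpd1 was low.

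Of the ATP-gated channels, P2rx7 was nearly without counts in skin and P2rx4 was read in every library. P2X7, encoded by P2rx7 (chromosome 5, 122643911 to 122691432, plus strand), is a cation channel that opens at high ATP and, when held open, can kill T cells. P2rx7 had 0, 3, 58 and 0 counts in skin 1 to 4, against 1388, 1687 and 1321 counts in SDLN 1 to 3. As levels these were 0, 0.243, 5.11 and 0 CPM in skin, against 94.2, 116 and 102 CPM in SDLN. Each skin library lay below each SDLN library, and of the 61 skin counts 58 came from skin 3, the library with the keratinocyte and fibroblast markers, whose part in the result was not tested. A count of 0 allows up to 0.276 CPM in skin 1 and 0.214 CPM in skin 4, for counting error alone.

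The mean of P2rx7 was 1.34 ± 2.52 CPM in skin (SD, n = 4) and 104 ± 11.3 CPM in SDLN (SD, n = 3), 77.8-fold lower in skin, yet it did not pass edgeR's test (log2 fold change -6.28, SE 1.83, adjusted p = 0.0937). It passed without skin 3 (log2 fold change -10.17, adjusted p = 0.0193), with DESeq2 (adjusted p = 0.00105), with limma-voom (0.00546) and with limma-voom with sample weights (0.00324), where 11.3%, 12.6%, 8.79% and 15.3% of all genes passed. Its direction was fixed by how it passed the filter, so these calls are no separate support for it. B cell markers summed to 2.99 to 38.4 CPM in skin and 70.6 to 95.5 CPM in SDLN over 4 markers, with Cd79b the most abundant, Pax5 at 0 in all skin libraries and none at 0 in all SDLN libraries, and their part in the result was not tested.

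P2X4, encoded by P2rx4 (chromosome 5, 122707544 to 122729738, plus strand), is a channel more sensitive to ATP than P2X7, and its gene lies 16.1 kb from that of P2rx7 on the same strand with 1 annotated gene between them. P2rx4 had 42.8, 61.6, 19.6 and 9.27 CPM in skin 1 to 4, against 20.1, 22.4 and 14.4 CPM in SDLN 1 to 3. Skin 1 and 2 lay above the SDLN libraries, skin 3 among them and skin 4 below, so no difference was shown (log2 fold change 0.81, SE 0.79, edgeR adjusted p = 0.698). Macrophage and dendritic cell markers summed to 3415, 3098, 828 and 12075 CPM in skin 1 to 4, lowest in skin 3 and highest in skin 4, and their part in the P2rx4 values was not tested. Per kb of exon, the ratio of P2rx4 to P2rx7 was 216 in skin 2 and 3.25 in skin 3, with no P2rx7 count in skin 1 and 4, against 0.181, 0.164 and 0.120 in SDLN 1 to 3.

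Promoter windows are shown for P2rx7, for its neighbour P2rx4, for Nt5e, the member that fell, and for Art2b, described next, because the adjacent pair had such unlike levels in skin. They are 300 bases long, from 250 before to 50 after a transcription start of RefSeq on GRCm38.p6, read 5′ to 3′ on the gene's strand; 8 of the 9 genes had such a window, all but Adora2a, and P2rx7 has 2, which the gene-level counts cannot separate. Capitals mark matches, on either strand, to a set of short motifs picked after the counts were seen. The AP-1 motif, spelled TGANTCA, occurs in 7.81% of all 32817 RefSeq windows. The cAMP response element, spelled TGACGTCA, occurs in 1.79% of them, and the T-box motif, spelled GGTGTGA, in 3.98%. The Runx motif, spelled TGTGGT, occurs in 16.8%, the TCF and LEF motif, spelled CTTTGAA, in 5.14%, and the GATA motif, spelled AGATAA, in 11.2%. Matches in the windows printed do not overlap.
P2rx7, first start, chr5:122643677-122643976, plus strand: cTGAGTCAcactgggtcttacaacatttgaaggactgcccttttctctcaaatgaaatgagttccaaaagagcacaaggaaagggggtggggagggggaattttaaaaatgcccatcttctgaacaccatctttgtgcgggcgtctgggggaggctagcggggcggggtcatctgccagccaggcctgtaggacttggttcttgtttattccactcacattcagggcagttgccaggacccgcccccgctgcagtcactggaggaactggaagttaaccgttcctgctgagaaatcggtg
P2rx7, second start, chr5:122650133-122650432, plus strand: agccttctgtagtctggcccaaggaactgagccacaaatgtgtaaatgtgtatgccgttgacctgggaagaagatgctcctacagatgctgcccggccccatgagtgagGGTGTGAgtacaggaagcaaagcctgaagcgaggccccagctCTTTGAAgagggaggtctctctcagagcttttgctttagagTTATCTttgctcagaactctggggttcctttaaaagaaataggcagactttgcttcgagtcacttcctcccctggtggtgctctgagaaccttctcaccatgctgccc
P2rx4, chr5:122707294-122707593, plus strand: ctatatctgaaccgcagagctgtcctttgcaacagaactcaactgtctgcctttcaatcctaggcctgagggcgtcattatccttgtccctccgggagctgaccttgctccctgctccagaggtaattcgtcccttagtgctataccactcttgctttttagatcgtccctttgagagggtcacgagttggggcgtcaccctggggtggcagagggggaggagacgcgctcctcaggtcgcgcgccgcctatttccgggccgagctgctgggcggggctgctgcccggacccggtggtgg
Nt5e, chr9:88327359-88327658, plus strand: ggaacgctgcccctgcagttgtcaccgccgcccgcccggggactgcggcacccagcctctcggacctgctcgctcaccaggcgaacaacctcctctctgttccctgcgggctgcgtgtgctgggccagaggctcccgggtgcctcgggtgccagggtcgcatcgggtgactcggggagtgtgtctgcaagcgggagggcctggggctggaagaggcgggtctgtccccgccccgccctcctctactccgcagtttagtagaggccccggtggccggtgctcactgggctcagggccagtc
Art2b, chr7:101581112-101581411, minus strand: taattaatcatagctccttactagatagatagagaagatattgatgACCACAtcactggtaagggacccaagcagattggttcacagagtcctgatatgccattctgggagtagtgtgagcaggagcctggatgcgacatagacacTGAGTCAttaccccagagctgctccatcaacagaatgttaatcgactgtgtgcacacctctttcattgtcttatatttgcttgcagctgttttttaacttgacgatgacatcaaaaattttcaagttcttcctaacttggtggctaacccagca
The first P2rx7 window holds 1 match, to AP-1, and the second 3, to T-box, TCF and LEF, and GATA. The windows of P2rx4 and Nt5e hold none of these letters, and that of Art2b holds 1 match each to Runx and AP-1. A match describes the letters only, and says nothing of binding in these cells.

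Extracellular NAD also reaches P2X7 in mouse T cells: the ecto-ADP-ribosyltransferase ART2.2, encoded by Art2b, uses NAD to modify P2X7 and open it without ATP, and CD38 removes NAD. Art2b had 0 counts in each of the 4 skin libraries, against 783, 582 and 725 counts in SDLN 1 to 3 (49.8 ± 8.42 CPM in SDLN, SD, n = 3). The tissues did not overlap, and Art2b fell at least 199.6-fold, with the floor set at 3 counts in each skin library (edgeR adjusted p = 0.0142), a call lost without any 1 SDLN library (adjusted p = 0.113 to 0.142). Art4, a related ADP-ribosyltransferase of the cell surface, likewise had 0 counts in all skin libraries, against 238, 218 and 190 counts in SDLN 1 to 3, and fell at least 61.3-fold (adjusted p = 0.0380), lost without any 1 SDLN library as well (adjusted p up to 0.177). Art2b shares sequence with Art2a-ps, and reads that align to both would not have been counted for either; Art2a-ps itself had 134, 0, 0 and 25 counts in skin 1 to 4, against 88, 134 and 72 counts in SDLN 1 to 3 (adjusted p = 0.887).

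Cd38 was lower in each skin library, at 20.1, 37.9, 31.5 and 20.8 CPM in skin 1 to 4, against 79.1, 71.9 and 62.1 CPM in SDLN 1 to 3, without passing edgeR's test (log2 fold change -1.37, SE 0.46, adjusted p = 0.144). It passed with DESeq2 (adjusted p = 0.0164). Of 7 genes of extracellular NAD handling, 5 were tested, 0 rose, 2 fell and 3 did not pass, where 3.28% of all genes rose and 3.96% fell. The median log2 fold change was -1.37. By DESeq2, by limma-voom and before adjustment (p under 0.05), the number that rose was 0 too. Art2b and Art4 fell in each case, joined by Cd38 with DESeq2 and in edgeR before adjustment. With DESeq2 12.6% of all genes passed in either direction, and with limma-voom 8.79%. Genes with no skin count pass the filter through SDLN alone, and 269 of the 271 such genes in the whole table were called lower, so the calls of Art2b and Art4 are what such a gene nearly always receives.

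**Figure D2:**
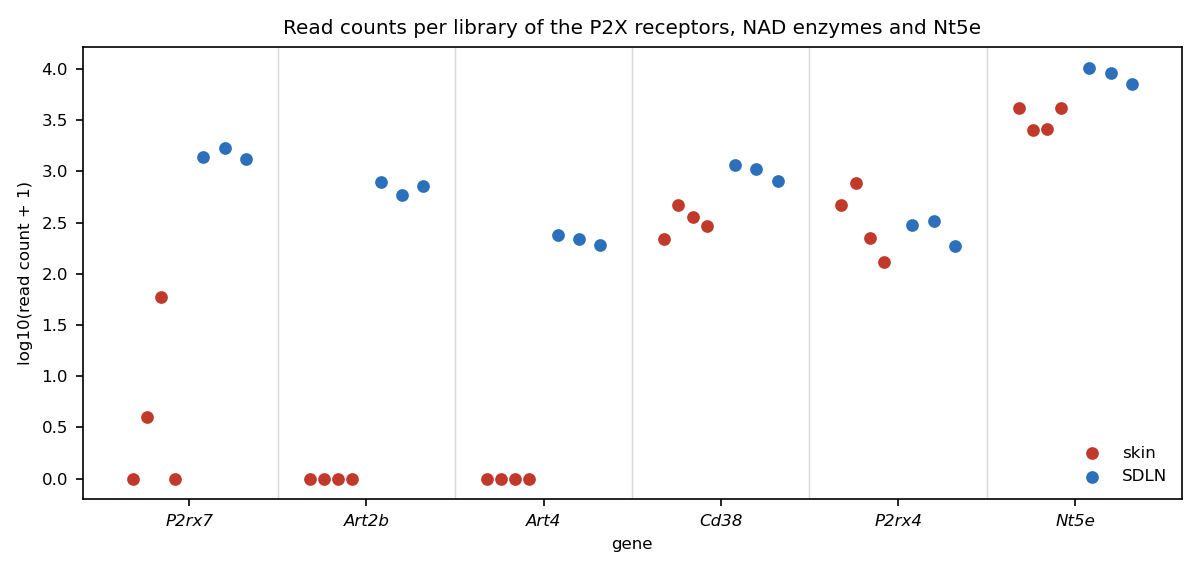
Read counts, as log10 of the count plus 1 (vertical axis), of P2rx7, the NAD enzymes Art2b, Art4 and Cd38, P2rx4 and Nt5e in 4 skin (red, left of each column) and 3 SDLN libraries (blue, right). Art2b and Art4 lie at 0 in all skin libraries and P2rx7 at 0 in 2 of them, while P2rx4 and Nt5e keep counts of 130 or more in every library.

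Other ATP and nucleotide receptors were sparse. Of 5 further P2X genes, 3 had any count and 1 was tested, P2rx5, with 0, 0, 1.06 and 4.64 CPM in skin 1 to 4, against 1.22, 1.04 and 0.541 CPM in SDLN 1 to 3 (log2 fold change 0.61, edgeR adjusted p = 0.922, and -1.43 without skin 4). Of 7 P2Y genes, 2 were tested and neither passed. P2ry14, a receptor for UDP-glucose, was uneven in skin, at 1.10, 71.3, 1.41 and 26.7 CPM in skin 1 to 4, against 6.51, 6.08 and 9.34 CPM in SDLN 1 to 3 (log2 fold change 1.78, adjusted p = 0.633). Among 4 channels that can release ATP, Lrrc8a, a subunit of the volume-regulated anion channel, was at 100 ± 42.3 CPM in skin (SD, n = 4) and 105 ± 52.1 CPM in SDLN (SD, n = 3), and it did not pass (log2 fold change -0.07, adjusted p = 0.975).

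Of the adenosine receptors, Adora2a (chromosome 10, 75316877 to 75334784, plus strand) encodes the high-affinity receptor of T cells. Adora2a had 12.98, 43.3, 5.99 and 3.49 CPM in skin 1 to 4, against 13.8, 14.2 and 13.3 CPM in SDLN 1 to 3. Skin 2 was above the SDLN libraries and the other skin libraries below them, with 12.4-fold between the highest and the lowest in skin, while the SDLN libraries lay within 1.07-fold of each other. The log2 fold change of 0.25 (SE 1.06, edgeR adjusted p = 0.9495) was decided by skin 2, and without it the value was -0.90 (adjusted p = 0.658).

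Adora2b (chromosome 11, 62248984 to 62266453, plus strand) encodes the low-affinity receptor. Adora2b had 0, 0, 0 and 46 counts in skin 1 to 4, against 4, 3 and 2 counts in SDLN 1 to 3, and was too low for the test. The one library with more than 4 counts, skin 4, at 3.28 CPM, also had the highest sum of macrophage and dendritic cell markers, whose part in this value was not tested. Without the filter on low counts, the log2 fold change was 1.89 (SE 2.40, edgeR adjusted p = 0.685). Skin 4 also held 404 of the 409 counts of Adora1, the receptor that lowers cAMP, where SDLN libraries had 0 counts.

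The A2 receptors signal through the stimulatory G protein subunit encoded by Gnas, which makes adenylyl cyclase raise cAMP. Gnas rose, at 242, 659, 343 and 587 CPM in skin 1 to 4, against 135, 115 and 145 CPM in SDLN 1 to 3, with every skin library above every SDLN library (log2 fold change 1.798, SE 0.39, edgeR adjusted p = 0.0380). The call was lost without skin 2 or skin 4 (adjusted p = 0.0533 and 0.0731) and without any 1 SDLN library (0.165 to 0.176), and reads of Gnas and of antisense transcripts at its locus cannot be told apart. The sum of the macrophage and dendritic cell markers was higher in each skin library too, but not every marker was. Cd74, the most abundant, was at 488 CPM in skin 3 and 490 CPM in SDLN 3. The part of these markers in the Gnas value was not tested. Of 10 genes of the core of this route, 1 rose, 0 fell and 9 did not pass, where 3.28% of all genes rose and 3.96% fell. The median log2 fold change was 0.54, and 1 call among so few genes is no result about the list. Genes that fell numbered 0 with edgeR, 1 with limma-voom, 1 with DESeq2 and, in edgeR before adjustment (p under 0.05), 2. With limma-voom and DESeq2 the gene was Adcy6, which had 0, 0, 6 and 0 counts in skin 1 to 4 and passed the filter through SDLN alone. Prkar1a, a regulatory subunit of the cAMP-dependent kinase, was at 1168, 526, 1084 and 585 CPM in skin 1 to 4, against 270.5, 370 and 141 CPM in SDLN 1 to 3, without passing (log2 fold change 1.69, adjusted p = 0.0642), and it passed with DESeq2 (0.00295).

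Adenosine is cleared by adenosine deaminase, which turns it into inosine, and adenosine kinase, which turns it into AMP. Ada (chromosome 2, 163726584 to 163750239, minus strand) had 13.8, 4.69, 7.05 and 6.28 CPM in skin 1 to 4, against 22.1, 25.8 and 27.2 CPM in SDLN 1 to 3. Adk (chromosome 14, 21052574 to 21448569, plus strand) had 122, 5.26, 77.7 and 90.8 CPM in skin 1 to 4, against 197, 178 and 206 CPM in SDLN 1 to 3. For both genes every skin library lay below every SDLN library, with skin 1 the nearest and skin 2 the farthest. The means of Ada were 7.96 ± 4.02 CPM in skin and 25.04 ± 2.62 CPM in SDLN, and those of Adk 73.8 ± 49.3 CPM in skin and 194 ± 14.1 CPM in SDLN (SD, n = 4 and n = 3). Neither passed edgeR's test, with log2 fold changes of -1.65 for Ada (SE 0.83, adjusted p = 0.355) and -1.39 for Adk (SE 0.79, adjusted p = 0.432), and neither passed in any of 19 alternatives, with a lowest adjusted p of 0.0722 for Ada and 0.0715 for Adk.

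Slc29a1 (chromosome 17, 45585200 to 45599606, minus strand) encodes ENT1, the transporter that lets adenosine equilibrate across the membrane. Slc29a1 had 1498, 1, 415 and 831 counts in skin 1 to 4, against 1919, 1890 and 1814 counts in SDLN 1 to 3. As levels these were 138, 0.0809, 36.6 and 59.3 CPM in skin, against 130.2, 130.5 and 140.1 CPM in SDLN. Skin 1 lay within the SDLN range, skin 3 and 4 lay below it, and skin 2 had a single read. The log2 fold change was -1.19 (SE 1.31, edgeR adjusted p = 0.741), and -0.79 without skin 2 (adjusted p = 0.465).

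Of 6 other nucleoside transporters, 3 were tested, 0 rose, 1 fell and 2 did not pass, where 3.28% of all genes rose and 3.96% fell. The median log2 fold change was -0.49. By DESeq2, by limma-voom and before adjustment (p under 0.05), the number that rose was 0 too. With DESeq2, with limma-voom and in edgeR before adjustment, Slc29a2 alone fell. Slc29a2, which encodes the second equilibrative transporter ENT2, fell, with 0 counts in each skin library, against 44, 75 and 89 counts in SDLN 1 to 3, at least 20.1-fold lower (edgeR adjusted p = 0.0389) and lost without any 1 SDLN library (adjusted p up to 0.177). Like Art2b and Art4, Slc29a2 passed the filter through SDLN alone, and such a gene nearly always receives this call. Slc28a2, which encodes the concentrative transporter CNT2, was the most abundant per exon length and did not pass, at 171, 110, 46.1 and 71.1 CPM in skin 1 to 4, against 161, 154 and 106 CPM in SDLN 1 to 3 (log2 fold change -0.49, adjusted p = 0.684).

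Of 16 genes of purine salvage and breakdown inside the cell, 13 were tested, 0 rose, 1 fell and 12 did not pass, with a median log2 fold change of -0.27. Over all genes 3.28% rose and 3.96% fell. By DESeq2, by limma-voom and before adjustment (p under 0.05), the number that rose was 0 too. Ampd1 fell in each case, joined by Nt5c in edgeR before adjustment (unadjusted p = 0.0418). Ampd1, an AMP deaminase best known from muscle, fell, with 0 counts in each skin library, against 251, 263 and 197 counts in SDLN 1 to 3, at least 67.4-fold lower (edgeR adjusted p = 0.0380), and it too was lost without any 1 SDLN library (adjusted p up to 0.176). Hprt, which salvages hypoxanthine and guanine, was at 317 ± 43.7 CPM in skin (SD, n = 4) and 360 ± 92.6 CPM in SDLN (SD, n = 3) and did not pass (log2 fold change -0.18, adjusted p = 0.807). Over all 68 listed genes of the wider pathway, 43 were tested, of which 1 rose and 4 fell, where 3.28% of all genes rose and 3.96% fell, with a median log2 fold change of -0.27. The 4 that fell, Art2b, Art4, Slc29a2 and Ampd1, all had no skin count and passed the filter through SDLN alone. Such genes were called lower in 269 of 271 cases, so these calls were nearly fixed in advance. Without SDLN 1, 2 or 3 none of the 44, 45 and 45 then tested passed edgeR's test, where 0.405%, 0.364% and 0.641% of all genes passed. At an unadjusted p under 0.05 the counts were 2 higher each and 5, 5 and 7 lower. The share of all genes at that unadjusted threshold was not counted, so these counts are no result about the list. Without skin 3, at an adjusted p under 0.05, 1 of 41 was higher and 6 were lower, where 11.3% of all genes passed. With all libraries, by adjusted p, 2 of 43 were higher and 6 lower with DESeq2, where 12.6% of all genes passed, and 1 was higher and 5 lower with limma-voom, where 8.79% did. Adcy6, with 0, 0, 6 and 0 counts in skin 1 to 4, was among the lower genes in each of these settings. Alpl, with 0, 0, 230 and 0 counts, was added without skin 3. Both passed the filter there through SDLN alone, so their calls are no separate support. Cd38 was the other gene added by DESeq2.

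**Figure D3:**
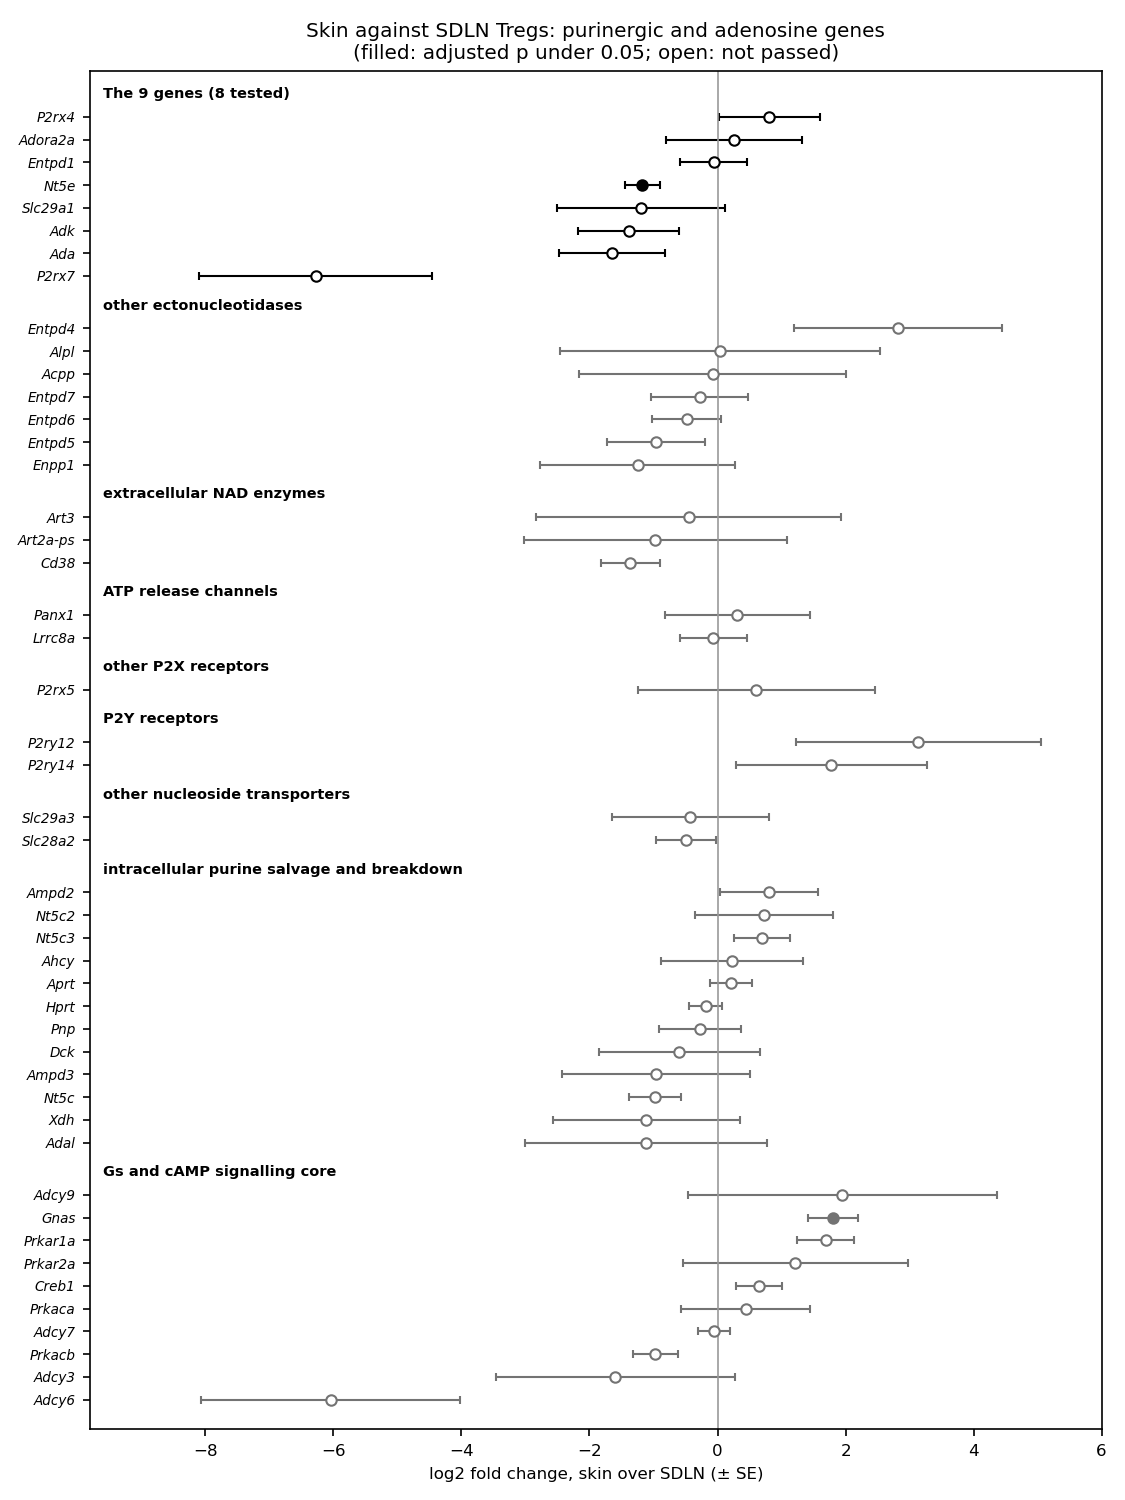
Log2 fold change, skin over SDLN (horizontal axis, bars are ± SE), of the 8 tested genes of the 9 (black) and of the 39 tested genes of the wider lists that had a skin count (grey), filled where the adjusted p was under 0.05. Nt5e and Gnas are filled, and P2rx7 lies farthest left of the 8 with an open point.

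Set against each other per kb of exon, the 9 genes formed a blurred order in skin and a clear one in SDLN. In skin the order of mean levels in CPM per kb was Nt5e at 32.4, Slc29a1 at 14.6, Entpd1 at 14.1, Adk at 8.66, Adora2a at 5.37, P2rx4 at 4.74, Ada at 3.97, Adora2b at 0.445 and P2rx7 at 0.224. There all neighbours overlapped between libraries except Ada with Adora2b. In SDLN the mean level in CPM per kb was 73.0 for Nt5e, 33.3 for Slc29a1, 22.7 for Adk, 17.5 for P2rx7, 14.7 for Entpd1, 12.5 for Ada, 4.50 for Adora2a, 2.70 for P2rx4 and 0.114 for Adora2b. Neighbours in this order did not overlap, except P2rx7 with Entpd1 and Entpd1 with Ada. By mean, P2rx7 thus stood last in skin and between Adk and Entpd1 in SDLN. Its place below Adora2b in skin rests on skin 4, the only skin library with Adora2b counts.

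**Figure D4:**
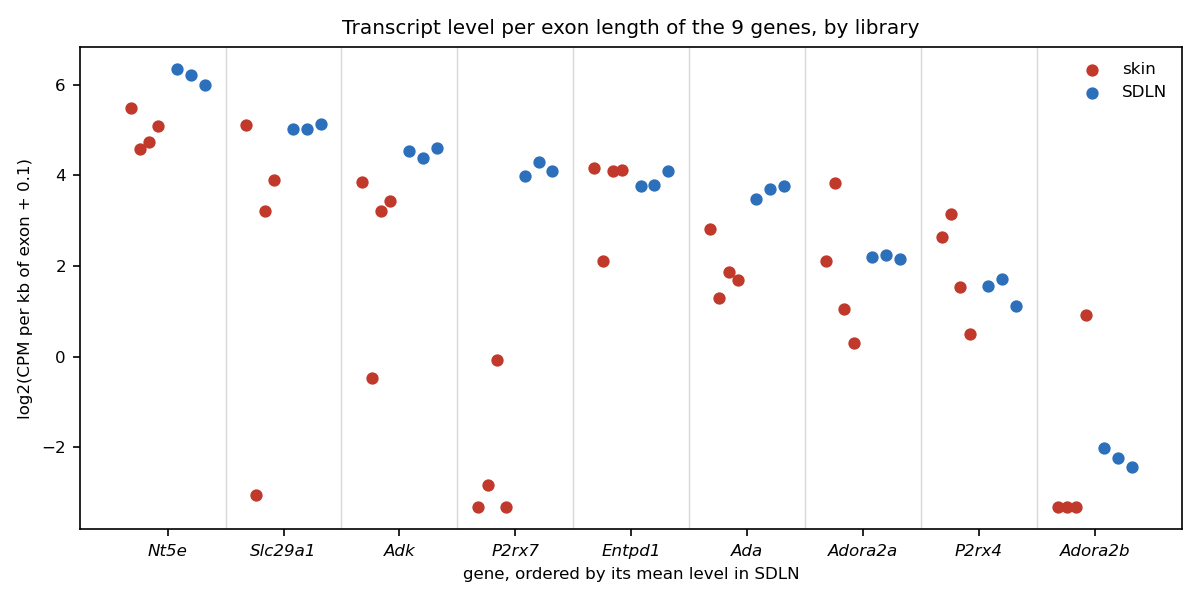
Level per exon length, as log2 of CPM per kb plus 0.1 (vertical axis), of the 9 genes in 4 skin (red, left of each column) and 3 SDLN libraries (blue, right), ordered by the SDLN mean. Skin points spread most for Slc29a1, and SDLN points lie close together for every gene.

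Among skin libraries the coefficients of variation ran from 0.282 for Nt5e to 1.88 for P2rx7, with Adora2b seen in skin 4 alone, against 0.0342 for Adora2a to 0.277 for Adora2b among SDLN libraries. Nt5e was the steadiest of the 9 in skin. Of the 8 tested genes, 5, 6, 6 and 7 lay below every SDLN library in skin 1, 2, 3 and 4, where 54.2%, 53.4%, 44.6% and 47.1% of all tested genes did. The genes below were not the same in each: skin 2 was low for Entpd1, within 1 read of 0 for Slc29a1 and high for Adora2a and P2rx4, whereas skin 4 was low for P2rx4 and Adora2a and not for Entpd1. Nt5e, P2rx7, Ada and Adk were below in all 4.

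Among 7045 other genes that averaged 20 CPM or more, those whose log2 CPM tracked Nt5e most closely over the 7 libraries were Parvg, an actin-linked adhesion protein of blood cells (Pearson r 0.992), Ppp2r5c, a regulatory subunit of protein phosphatase PP2A (0.989), and Vps11, a component of endosomal tethering complexes (0.989). These values describe 7 points in 2 tissues and share libraries and depth with Nt5e. Parvg was at 85.8 ± 31.9 CPM in skin (SD, n = 4) and 216 ± 11.3 CPM in SDLN (SD, n = 3), lower in skin as Nt5e was.

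**Figure D5:**
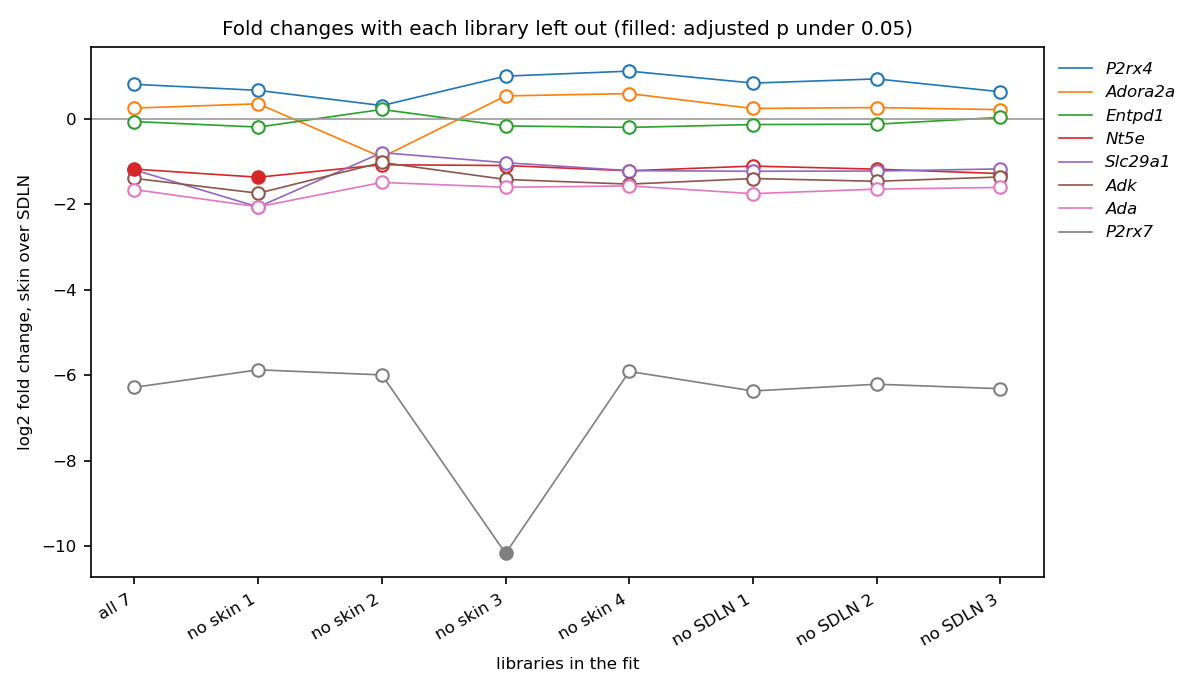
Log2 fold change, skin over SDLN (vertical axis), of the 8 tested genes in the fit of all 7 libraries and with each library left out (horizontal axis), filled where the adjusted p was under 0.05. Nt5e is filled with all libraries and without skin 1, P2rx7 only without skin 3, and Adora2a changes sign without skin 2.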

How the data were processed

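Libraries of sorted Tregs, 4 from skin and 3 from SDLN, were compared. The authors deposited raw counts of reads for each gene symbol, not normalized. The submitters' processing notes name HTSeq 0.6.1, SAMtools 0.1.19.0, Bowtie2 2.1.0.0, TopHat2 2.0.12, CASAVA 1.8.2 and the build mm10. Per the labels, cDNA came from the SMARTer Ultra Low Input kit. Which annotation and strand setting the counting used is not given, so a gene and an overlapping or antisense neighbour cannot be told apart. The 5 summary lines were left out; alignments to several places made up 61.2% to 70.4% of the table's counts, reads outside genes 10.0% to 17.1% and ambiguous reads 0.365% to 0.467%.

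Genes were kept by filterByExpr (minimum count 10), scaled by TMM and tested by the robust quasi-likelihood test of edgeR 4.0.16 (R 4.3.3), two-sided, with Benjamini-Hochberg adjustment over 11376 genes. The test was checked on simulated data with the same dispersion in both tissues. In the real libraries the median coefficient of variation was 0.750 in skin and 0.187 in SDLN. The check therefore does not show how the test behaves at such unequal spread. SE is the log2 fold change over the root of F. Level per kb divides CPM by GENCODE M21 exonic length. Floors are 3 counts per library and cover counting error only. The 9 genes and all lists were chosen with earlier results of these data known. All 9 were named, with called genes and the most abundant one per kb of each wider list, the 3 genes most correlated with each called one of the 9, and marker genes. Alternatives used DESeq2 1.42.0, limma 3.58.1, other scaling, filters and thresholds, a replicate block and left-out libraries; counts of the wider lists under them were added after the data were seen. Gamma-delta T cell markers had no matching symbol and were not analysed here, and Adgre1 was read under its older symbol Emr1. One marker gene is not reported here.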

Additional observations from a re-analysis of the deposited data

Results flagged for a closer look

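Of 19 genes examined in the 4 skin libraries, 4 had 1 library farther from the rest than Dixon's 95% critical value, where chance gives about 1 in 20 for normally distributed values. A gene read in 1 skin library alone, as Adora2b was, is always flagged, and P2rx7 and Adora1 were close to that case. The share flagged over all genes was not counted, so the number of flags cannot be called unusual. Entpd1 was low in skin 2, at 23.5 CPM against 95.2 to 99.4 CPM in the other skin libraries. P2rx7 was high in skin 3, at 5.11 CPM against at most 0.243 CPM in the others. Skin 4 was high for Adora2b, at 3.28 CPM where the other skin libraries had no count, and for Adora1, at 28.8 CPM against at most 0.441 CPM.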

How the results depend on the processing

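Among single genes, 321 of 397 alternative values kept direction and side of the threshold, 49 lost a call, 6 gained one and 21 changed sign. Genes lower in skin, among the 9, numbered 1 with all libraries (Nt5e), 2 with DESeq2, limma-voom and limma-voom with sample weights (Nt5e and P2rx7), and 0 without a low-count filter, at a mean of at least 5 CPM, at an adjusted p under 0.01 and with the replicate block on 6 or 7 libraries, and 0 to 1 with 1 library left out. Over all genes, 373 were higher and 451 lower; the numbers were 188 and 70 without the filter, 923 higher with DESeq2, 757 higher and 985 lower with sample weights, 729 lower with limma-voom, 99 lower at a mean of at least 5 CPM, 72 and 16 at an adjusted p under 0.01, and 33 to 582 higher and 9 to 822 lower with 1 library left out. The replicate block gave 32 higher and 10 lower genes on 6 libraries and 44 and 12 on 7. Deviations of same-numbered libraries showed little correlation (0.067, -0.002 and -0.040). Skin 1 correlated best with SDLN 1, while skin 2 and 3 did not correlate best with their own number. With so few libraries, and skin libraries so unlike each other, these values cannot decide whether the numbers pair them.

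The sign changes all concern genes not called. With limma-voom they were Adora2a -0.44 and P2rx5 -1.60, and with sample weights Adora2a -0.94, Entpd1 0.012, Hprt 0.020, P2rx4 -0.11 and P2rx5 -0.62. With the replicate block on 6 and 7 libraries they were Lrrc8a 0.29 and 0.30, P2rx5 -3.88 and -3.86 and P2ry14 -1.18 and -1.15. They also occurred without skin 2 for Adora2a and Entpd1, without skin 4 for Lrrc8a and P2rx5, without SDLN 1 or 2 for Lrrc8a, and without SDLN 3 for Entpd1 and Hprt. With 1 library left out, the ranges were -0.90 to 0.59 for Adora2a, -0.20 to 0.22 for Entpd1, -0.34 to 0.024 for Hprt, -0.44 to 0.23 for Lrrc8a and -1.43 to 1.02 for P2rx5. The cause was not tested. P2rx5 and Slc29a2 gave no value at a mean of at least 5 CPM. Adora2b, at 55 counts in all, did not pass the low-count filter.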
